A study of Mus musculus with 24 samples.

Results

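Heart ventricle of 3-month-old female FVB mice was set against heart ventricle of 4-week-old FVB mice, with 3 arrays in each group. These are 6 of 24 arrays that follow ventricle of this inbred strain from embryo to 1 year, in 8 groups of 3. Total RNA was hybridised to single-channel Affymetrix mouse arrays, and the deposited value of a probe set (the group of probes for 1 transcript) is a linear signal. The labels give the 3-month mice as female, give no sex for the 4-week mice, and name no treatment or genetic change. Age and sex therefore cannot be told apart in this comparison. The 3 arrays of 5-month males, set against the same 4-week arrays, are given beside the results. The labels do not say whether an array stands for 1 animal or a pool, so the p-values speak only of the variation among these arrays, part of which may be technical. Of 12654 probe sets in the table, 66 are controls and 2611 hold 0 on every array. The remaining 9977 were taken as measured, and 9952 of them, for 7406 genes, passed the filter on low signal and were tested.

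In the mouse, the ventricle at 4 weeks belongs to a juvenile animal just past weaning, and at 3 months to a young adult. Over this time the heart still grows, mostly by enlargement of its muscle cells, while the burst of cell division and matrix deposition that follows birth comes to an end. Fibroblasts build the collagen and elastic network of the wall, and that network, once laid down, turns over slowly. Muscle cells, meanwhile, run mainly on fatty acids and use the adult set of contractile proteins.

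Both groups carried strong signals of ventricular muscle. The alpha myosin heavy chain gene Myh6 read 30563.5, 24833.3 and 33450.6 at 4 weeks and 34456.4, 27510.7 and 20641.6 at 3 months. Of the 10 ventricular muscle markers measured, 0 passed the test (limma) and 3 had an unadjusted p under 0.05. Over all 9952 probe sets tested, 1407 had an unadjusted p under 0.05. Such counts for other lists below are to be read beside that share. The ventricular light chain gene Myl2 read 28793.9, 26117.9 and 30921.4 at 4 weeks but 14949.2, 301.8 and 17033.3 at 3 months, so that 1 array stood far below the rest. Its log2 fold change was -2.75 ± 0.82 (SE) with an adjusted p of 0.0767 (limma, Benjamini-Hochberg). Xist, the X-inactivation transcript made only by cells with more than 1 X chromosome, read 11.9, 18.1 and 23.9 at 4 weeks and 816.5, 1163.7 and 580.3 at 3 months. Signals under 124.6, the 95th percentile of the probe sets for bacterial and yeast controls, are called background here, so Xist was not above background at 4 weeks, nor in the 5-month males, with a mean of 28.3. It was at least 6.58-fold higher at 3 months than at 4 weeks (adjusted p 0.00898, limma), but with every signal under the background level raised to that level the call was lost (adjusted p 0.061). The fit takes its spread from all 8 groups, and the labels give no sex for the groups up to 4 weeks. For Xist the adjusted p (limma) was 9.5e-05 with only the 15 arrays from 4 weeks on and 0.00266 with only the 6 arrays. The Y-linked Eif2s3y read 236.8, 368.4 and 331.9 at 4 weeks and 82.3, 53.4 and 87.2 at 3 months, on separate ranges, with a log2 fold change of -2.08 ± 1.06 that did not pass (adjusted p 0.386). On Xist the 4-week arrays thus read like the 5-month males. Of 8 sex-linked genes measured, 1 passed as higher (limma), which was Xist, and 0 passed as lower, while 5 had an unadjusted p under 0.05.

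Signals of added control transcripts also separated the groups. BioB and BioC are bacterial transcripts added to each hybridisation, so their ratio should not follow the tissue. The mean BioB signal over the mean BioC signal was 0.3955, 0.4069 and 0.4379 at 4 weeks and 0.8273, 0.9055 and 0.9733 at 3 months. An exact permutation test over the 6 arrays gave a two-sided p of 0.1, which is the smallest that 3 against 3 can give. BioC itself averaged 1820 at 4 weeks and 1799 at 3 months. Cre, an added transcript from a bacteriophage, was lower at 3 months, with mean signals of 17130, 17430 and 18730 in rising order against 19150, 24580 and 25120 at 4 weeks, and an exact two-sided p of 0.1. Its part in the results was not tested. The ratios of the actin probe sets at either end of the transcript overlapped between the groups, and so did the array medians, which lay between 196.8 and 219.8. Adding the BioB to BioC ratio to the model cut the called probe sets from 277 to 31. The ratio separated the groups completely, so within these 6 arrays whatever shifted it and the step in age cannot be told apart. Calls were lost in that fit with larger and with smaller changes. The log2 fold change went from 1.39 to 1.72 for the natriuretic peptide gene Nppb. It went from 1.08 to 0.17 for the fatty acid oxidation gene Acadl. A call kept or lost in that fit therefore does not show what the ratio accounts for.

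**Figure D1:**
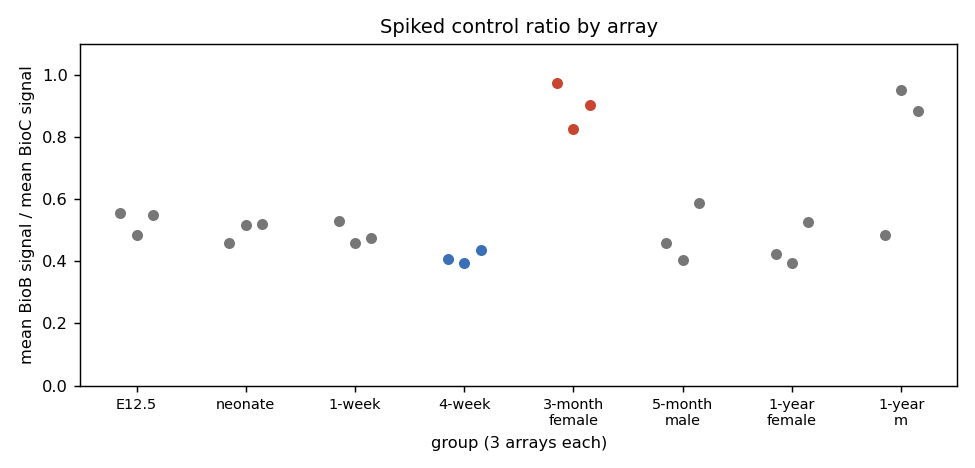
Ratio of the mean BioB signal to the mean BioC signal on each of the 24 arrays, by group, with 1 point per array. The 3-month female arrays lie between 0.8273 and 0.9733, and the 4-week arrays between 0.3955 and 0.4379.

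Between 4 weeks and 3 months 277 probe sets passed an adjusted p of 0.05, which is 2.78% of those tested. Of these, 111 were higher at 3 months (1.12%) and 166 were lower (1.67%). In genes, each represented by its brightest probe set, 85 were higher (1.15% of the genes tested) and 135 were lower (1.82%). The arrays of the groups did not overlap for 219 of these 220 genes, against 20.3% of all genes tested. The calls were made on the same arrays, so this adds no support to them. Of the called genes, 48 rose and 64 fell by more than 2-fold, and the median change of all genes tested was -0.02 on the log2 scale. The count rested in part on single arrays and ran from 162, without the second 4-week array, to 322, without the third 3-month array. It was 165 without the first and 172 without the third 4-week array, and 184 without the second 3-month array. The X chromosome held 4 of the 220 called genes (1.82%) and 3.19% of the genes tested. That share does not show what part sex had in the calls, which was not tested.

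**Figure D2:**
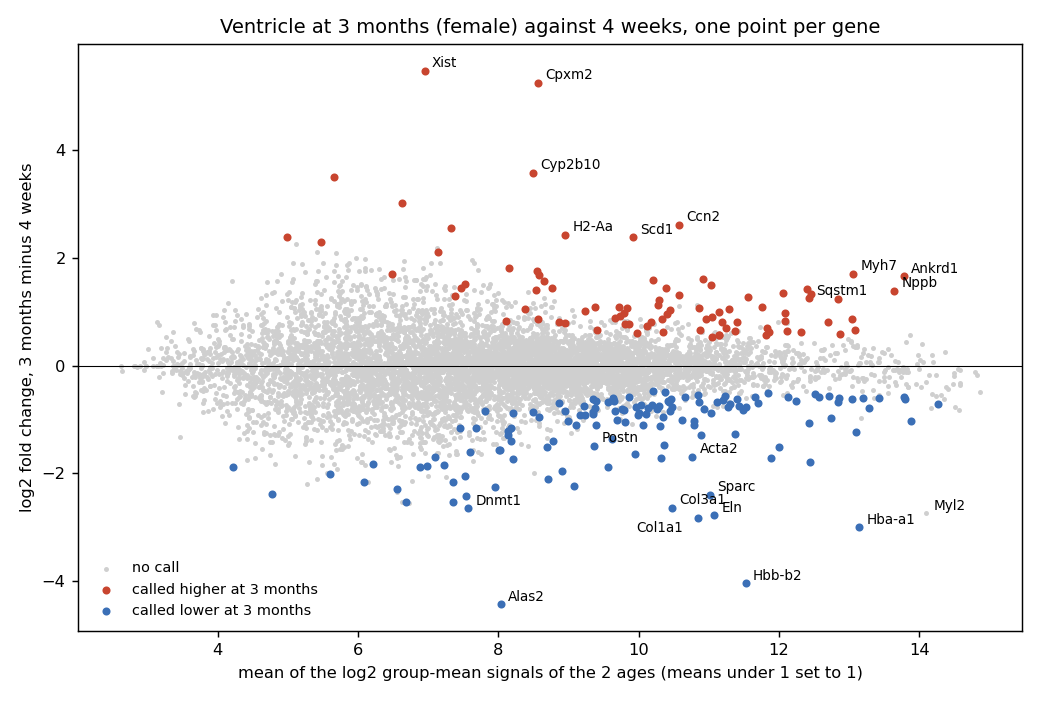
Log2 fold change of each of the 7406 genes, 3 months minus 4 weeks, against its mean log2 signal over both ages, with called genes in colour. Haemoglobin and collagen genes with strong signals lie at the bottom, Xist and Cpxm2 at the top, and Myl2 is the low grey point at the right.

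The extracellular matrix showed the broadest change. Of 51 matrix genes measured, 18 fell and 3 rose, and the median change of the list was -0.50 on the log2 scale, against -0.02 for all genes. The falls covered the fibrillar collagens, the basement membrane and the elastic fibre. Col1a1, which encodes the main chain of type I collagen, read 4871.6, 5320.2 and 4497.6 at 4 weeks and 638.5, 705.5 and 723.9 at 3 months. The arrays of each age lay close together and far from those of the other, a log2 fold change of -2.83 ± 0.15 (adjusted p 7.91e-12). Its partner chain gene Col1a2 went from 2100.2, 2674.2 and 2188.8 to 692.6, 680.5 and 745.4, a log2 fold change of -1.71 ± 0.15. Col3a1, the gene of type III collagen, went from 3154.4, 4141.9 and 3383.8 to 448.9, 649.2 and 618.9, a log2 fold change of -2.65 ± 0.25. Elastin, the rubber-like protein of the vessel wall, had a change of the same order. Eln read 5717.6, 5975.7 and 5040.8 at 4 weeks and 648.3, 695.0 and 1173.1 at 3 months, a log2 fold change of -2.78 ± 0.18 (adjusted p 6.07e-10). The matrix-binding gene Sparc, whose product assists collagen assembly, fell by 2.41 ± 0.21 on the log2 scale. The elastic fibre crosslinker Loxl1 read 388.1, 332.1 and 339.7 at 4 weeks and 59.0, 63.4 and 164.4 at 3 months.

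Further collagens fell, with changes smaller than those of Col1a1 and Col3a1. Col5a2, a collagen that sets fibril diameter, fell by 2.11 ± 0.24 on the log2 scale. The basement membrane collagens Col4a1 and Col4a2, which are transcribed from a shared promoter region, had log2 fold changes of -1.72 ± 0.15 and -1.50 ± 0.14. Col4a1 read 6186.6, 7312.6 and 7229.4 at 4 weeks and 2223.1, 2213.9 and 1854.2 at 3 months. The microfibrillar collagen Col6a1 fell by 1.30 ± 0.14, and the cell-adhesion protein gene Fn1 by 1.11 ± 0.17. Postn, a matricellular gene of activated and growing fibroblasts, read 1113.5, 1328.3 and 851.8 at 4 weeks and 265.8, 476.3 and 446.9 at 3 months, a log2 fold change of -1.49 ± 0.28. Small changes also passed for Serpinh1, the collagen chaperone, at -0.77 ± 0.16, and for Col5a1 at -0.73 ± 0.14.

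Not all of the matrix moved down. Dcn, the gene of the collagen-binding proteoglycan decorin, read 14684.1, 14477.0 and 14250.0 at 4 weeks and 14439.2, 15319.4 and 11559.4 at 3 months, and its ranges overlapped. Bgn, the gene of the related biglycan, had a log2 fold change of 0.03 ± 0.15. Lum, whose product lumican also binds collagen fibrils, was higher at 3 months, at 2895.8, 3105.0 and 2660.0 against 1505.5, 1666.6 and 1442.9, a log2 fold change of 0.91 ± 0.21 (adjusted p 0.0134). Its adjusted p was 0.0557 without the first 4-week array, and 0.0649 without the third 4-week array or without the second 3-month array. Mgp, an inhibitor of calcification made by vessel wall cells, rose by 0.70 ± 0.18 on the log2 scale (adjusted p 0.0253). Ccn2, a secreted connective tissue growth factor induced by stretch and by transforming growth factor beta, read 787.3, 402.5 and 694.5 at 4 weeks and 3574.6, 3506.6 and 4063.5 at 3 months. That is a log2 fold change of 2.62 ± 0.26 (adjusted p 5.73e-07), opposite to the collagens. Leaving out 1 array at a time gave 15 to 18 falls and 1 to 3 rises. With the BioB to BioC ratio in the fit, 8 matrix genes passed as lower, among them Col1a1, Col1a2, Col3a1, Eln and Sparc, and Ccn2 was the 1 that passed as higher.

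**Figure D3:**
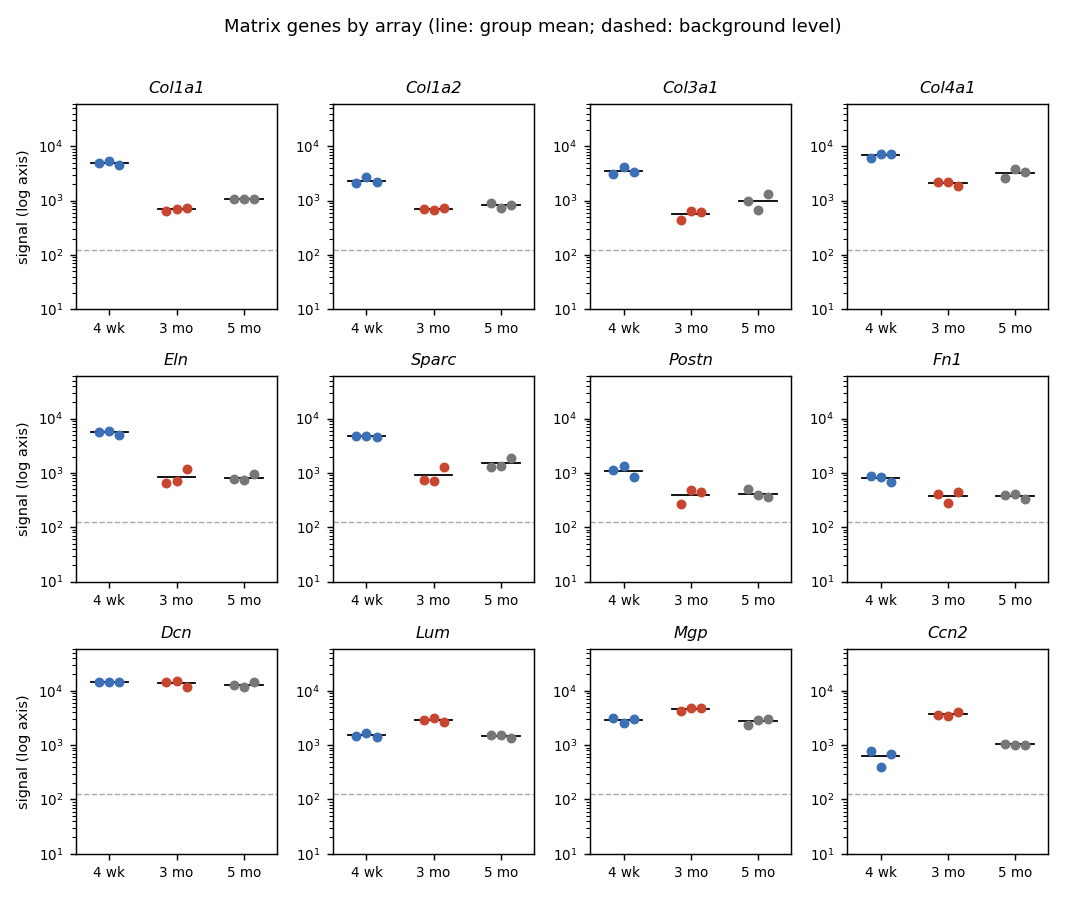
Signal of 12 matrix genes on each array at 4 weeks, 3 months (female) and 5 months (male), on a common log axis, with the group mean as a line and the background level of 124.6 dashed. The collagens, Eln, Sparc, Postn and Fn1 drop after 4 weeks, the ranges of Dcn overlap, and Lum, Mgp and Ccn2 are high at 3 months.

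The markers of matrix-making and vessel wall cells gave a mixed picture. Of 21 fibroblast and epicardium markers, 4 fell (Col1a1, Col3a1, Col1a2 and Postn, all of them matrix genes) and 1 rose (Lum), with a list median of -0.44. Their summed signal ran from 45061 to 46809 at 4 weeks and from 31117 to 37607 at 3 months. In bulk tissue, fewer cells of a type and less RNA per cell cannot be told apart. Acta2, the smooth muscle actin that is also a fetal heart gene, read 2833.2, 3105.7 and 3499.6 at 4 weeks and 1059.6, 974.0 and 869.8 at 3 months, a log2 fold change of -1.70 ± 0.24 (adjusted p 1.08e-04). The list of 11 smooth muscle and pericyte markers held 2 falls, Acta2 and Cnn1, with a median of -0.43. Its summed signal ran from 11616 to 12495 at 4 weeks and from 8670 to 9837 at 3 months. The smooth muscle markers Tagln, at -0.45 ± 0.18, and Myh11, at -0.17 ± 0.40, did not pass. Cnn1, a calponin of smooth muscle, passed with 3-month signals of at most 34.8, but kept its call in 2 of the 6 fits that each left out 1 array and lost it with signals under the background level raised to it (adjusted p 0.948).

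Of 16 endothelial markers 1 fell, and the list median was -0.27. The change was negative for 14 of them, and 5 had an unadjusted p under 0.05. Their summed signal ran from 18686 to 19315 at 4 weeks and from 14687 to 15753 at 3 months. Cdh5, the cadherin of endothelial junctions, read 1594.5, 2071.4 and 1963.1 at 4 weeks and 1099.6, 892.6 and 1148.7 at 3 months, a log2 fold change of -0.84 ± 0.17 (adjusted p 0.00436). Pecam1, at -0.15 ± 0.33, and Vwf, at -0.08 ± 0.21, did not pass. Nos3, the endothelial nitric oxide synthase, read 437.2, 645.6 and 479.3 at 4 weeks and 68.1, 186.3 and 97.8 at 3 months, a log2 fold change of -2.26 ± 0.42 (adjusted p 0.00218). Of 20 macrophage markers 0 passed (limma), 1 had an unadjusted p under 0.05, and the median was -0.24. The summed macrophage signal ran from 10733 to 11237 at 4 weeks and from 9311 to 10995 at 3 months.

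Among probe sets that stand for 1 gene, the 3 largest called falls were in haemoglobin and heme synthesis. A probe set with no gene in the annotation had a larger log2 fold change, -5.36 ± 1.09, from a mean of 586.5 to 5.4. That 3-month mean was in the background, so the size depends on how such signals are treated. Alas2, the erythroid enzyme that starts heme synthesis, read 721.7, 1539.3 and 987.8 at 4 weeks and 130.2, 21.7 and 38.4 at 3 months. Of the 3-month arrays 2 were in the background, so the log2 fold change of -4.43 ± 0.47 (adjusted p 1.26e-06) depends on how such signals are treated. With signals under the background level raised to it, the log2 fold change was -3.03 (adjusted p 1.13e-05). Hbb-b2, an adult beta globin gene, read 7915.2, 12474.6 and 11310.8 at 4 weeks and 745.6, 1504.2 and 218.9 at 3 months, a log2 fold change of -4.05 ± 0.40. Hba-a1, an adult alpha globin gene, read 24885.7, 20957.2 and 25150.3 at 4 weeks and 4030.2, 5101.3 and 1230.0 at 3 months, a log2 fold change of -3.01 ± 0.34. No 3-month array reached a 4-week array in any of these genes. The beta and alpha globin genes have near-identical copies, so the probe sets may read more than 1 gene. All 3 calls were kept in each of the 6 fits that left out 1 array and with the BioB to BioC ratio in the fit.

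These 3 were the only called members among 18 erythroid and blood markers. The summed signal of the list ran from 40928 to 43781 at 4 weeks, from 8051 to 13372 at 3 months and from 31089 to 53322 at 5 months. The anion exchanger of red cells, Slc4a1, had a log2 fold change of -1.13 ± 0.50 (adjusted p 0.279), and Klf1 and Gata1, transcription factors of red cell precursors, had -0.39 ± 0.74 and -0.07 ± 0.56. The embryonic globin gene Hbb-y was below background at both ages. The low haemoglobin reading belonged to the 3-month arrays alone among the 8 groups. Mean Hbb-b2 signal was 822.9 there and lay between 7728.7 and 20260.9 in the other groups. Mean Hba-a1 signal was 3453.8 against a lowest value of 19470.1 elsewhere. The amount of blood in the tissue was not recorded in the labels, and its part in the result was not tested.

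Promoter sequences of the haemoglobin genes are given because these members moved together most strongly. The windows are the 250 bases before the transcription start, from RefSeq on build GRCm38.p6, which is the genome of another strain (C57BL/6J). Capitals mark GATAA, the core of the GATA site, and CACCC, the site of the Klf family, both searched on either strand. Over all 32851 windows of this length, 22.6% held GATAA and 52.0% held CACCC. Hba-a1 held 1 GATA core and 2 CACCC, and Alas2 held 1 and 3, the latter lying in a run within 40 bases of the start.
Hba-a1, chr11:32283422-32283671 (+ strand): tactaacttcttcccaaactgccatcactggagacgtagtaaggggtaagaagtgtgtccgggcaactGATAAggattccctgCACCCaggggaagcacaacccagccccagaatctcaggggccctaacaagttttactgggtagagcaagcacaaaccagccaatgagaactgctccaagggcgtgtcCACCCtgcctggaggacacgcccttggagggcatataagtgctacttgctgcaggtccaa
Alas2, chrX:150547167-150547416 (+ strand): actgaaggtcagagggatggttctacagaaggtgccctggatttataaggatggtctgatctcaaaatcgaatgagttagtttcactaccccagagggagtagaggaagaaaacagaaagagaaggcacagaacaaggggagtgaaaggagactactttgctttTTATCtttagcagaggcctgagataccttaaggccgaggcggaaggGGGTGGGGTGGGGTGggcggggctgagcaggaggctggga

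Genes of load and of the fetal heart programme rose in part. Of 16 fetal cardiac genes, 3 rose and 1, Acta2, fell, with a list median of 0.06. Myh7, the slow beta myosin heavy chain that rodent ventricle gives up after birth, read 5256.6, 3689.2 and 5157.6 at 4 weeks and 18318.4, 17346.9 and 11027.7 at 3 months, a log2 fold change of 1.71 ± 0.33 (adjusted p 0.00336). Ankrd1, a stretch-responsive ankyrin repeat protein of the sarcomere and nucleus, read 7760.7, 6524.3 and 9471.3 at 4 weeks and 28985.6, 21299.4 and 24619.0 at 3 months, a log2 fold change of 1.66 ± 0.16 (adjusted p 5.00e-07). Nppb, the gene of brain natriuretic peptide, read 6919.4, 7308.3 and 9551.9 at 4 weeks and 23604.6, 22371.0 and 16437.0 at 3 months, a log2 fold change of 1.39 ± 0.27 (adjusted p 0.0039). The groups did not overlap in any of the 3, and each call was kept in all 6 fits that left out 1 array.

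Other members of the same programme did not pass. Nppa, the gene of atrial natriuretic peptide, had a log2 fold change of 0.57 ± 0.28 (adjusted p 0.37), and the skeletal actin gene Acta1 had 0.23 ± 0.23. The slow skeletal troponin gene Tnni1 had -0.28 ± 0.24. Mean Myh7 signal fell from 26606.8 in neonates through 11013.4 at 1 week to 4701.1 at 4 weeks, the lowest of the 8 groups, and was between 10233.0 and 17465.4 in the adult groups. Ankrd1, in contrast, was between 6459.7 and 7918.8 in all groups up to 4 weeks and between 17859.4 and 24968.0 in all adult groups. Nppb was high at 3 months only, at 20804.2, with 5030.5 to 8911.0 in the other groups.

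Windows before the starts of Nppb and Ankrd1 are shown for motifs that these load-responsive genes are known for. Capitals mark GGAATG, the core of the M-CAT site bound by the TEAD family, the GATA core given above, and TATAA, the core of the TATA box, each searched on either strand. GGAATG was found in 12.6% of all 32851 windows and TATAA in 22.8%. Nppb held 1 M-CAT core, 2 GATA cores and 1 TATA core, and Ankrd1 held 2, 1 and 1, with no overlap between motifs. Of the 2 starts listed for Myh7, the window of the first held 1 GGAATG and that of the second none of these motifs.
Nppb, chr4:147985650-147985899 (+ strand): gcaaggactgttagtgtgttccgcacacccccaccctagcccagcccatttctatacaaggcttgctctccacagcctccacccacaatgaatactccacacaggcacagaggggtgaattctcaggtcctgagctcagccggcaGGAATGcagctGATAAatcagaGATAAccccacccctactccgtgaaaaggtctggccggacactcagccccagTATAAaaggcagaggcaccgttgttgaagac
Ankrd1, chr19:36119845-36120094 (- strand): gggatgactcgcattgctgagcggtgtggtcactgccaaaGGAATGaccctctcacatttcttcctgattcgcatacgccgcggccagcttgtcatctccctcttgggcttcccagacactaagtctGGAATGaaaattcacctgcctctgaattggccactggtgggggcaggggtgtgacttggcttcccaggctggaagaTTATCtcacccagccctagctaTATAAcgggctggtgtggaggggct

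Few adult contractile and calcium genes passed the test. Of 25 measured, 2 rose and 1 fell, with a median of -0.15, although 13 had an unadjusted p under 0.05. The summed signal of the list ran from 256967 to 310855 at 4 weeks and from 204058 to 245561 at 3 months. Cacna1c, the pore of the cardiac L-type calcium channel, rose by 0.57 ± 0.14 on the log2 scale (adjusted p 0.0212), from 1795.6, 1879.1 and 1898.5 to 3061.3, 2840.5 and 2412.3. It kept its call only in the fit without the third 3-month array, and the adjusted p was between 0.0602 and 0.114 in the other 5. Pvalb, a calcium buffer of fast muscle, rose by 1.04 ± 0.22, with an adjusted p of 0.0538 without the first 4-week array. Casq1, named on the array as the skeletal muscle calsequestrin, read 10570.0, 10393.6 and 10074.3 at 4 weeks and 2706.5, 3284.9 and 3010.3 at 3 months, a log2 fold change of -1.79 ± 0.14. The skeletal muscle markers as a list gave 1 rise and 1 fall among 19, those same genes, with fast myosin genes Myh1, Myh2 and Myh4 below background at both ages. The calcium pump gene Atp2a2, at -0.41 ± 0.23, and the ryanodine receptor gene Ryr2, at 0.25 ± 0.23, did not pass.

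Several genes of antigen presentation rose. Of 22 measured, 6 rose and the other 16 did not pass, and the list median was 0.67. H2-Aa, the alpha chain of a class II molecule that presents peptides to helper T cells, read 439.0, 62.2 and 232.2 at 4 weeks and 1076.5, 1058.3 and 872.6 at 3 months, a log2 fold change of 2.43 ± 0.45 (adjusted p 0.00221). Its partner H2-Ab1 read 60.6, 71.1 and 72.2 at 4 weeks, all in the background, and 326.1, 313.2 and 242.5 at 3 months, which is at least 2.34-fold higher against the background level. Cd74, the invariant chain that escorts class II molecules, read 903.2, 690.7 and 835.5 at 4 weeks and 2405.2, 2245.9 and 1969.4 at 3 months, a log2 fold change of 1.45 ± 0.25. Class I genes, which nearly all cells express, had smaller rises. The heavy chain genes H2-K1 and H2-D1 had log2 fold changes of 0.98 ± 0.20 and 0.64 ± 0.17. The light chain gene B2m had 1.34 ± 0.36, from 2267.2, 3090.1 and 2565.7 to 4679.9, 8680.1 and 7196.0.

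Several of these calls were fragile. Leaving out any 1 array gave 3 or 4 rises in the list in place of 6. H2-Ab1 lost its call whichever array was left out, with adjusted p between 0.059 and 0.132, and B2m kept it only without the first 3-month array, with adjusted p up to 0.185 without the second. With the BioB to BioC ratio in the fit none of the 6 passed, and their adjusted p ran upward from 0.303 for Cd74. The class II gene H2-Eb1 read 427.4, 517.4 and 354.2 at 4 weeks and 84.4, 222.0 and 663.6 at 3 months, and did not pass. Of 29 interferon response genes 0 passed (limma), 3 had an unadjusted p under 0.05, and the median was 0.07. Of 20 lymphocyte markers 1 fell, the T helper cell gene Cd4, at 271.9, 395.3 and 278.1 against 33.4, 61.9 and 158.7, and it kept its call only in the fit without the third 3-month array (adjusted p between 0.0749 and 0.193 in the other 5). The promoters of H2-Aa and H2-Eb1 are shown because both carry the conserved Y box of class II genes, searched on either strand and in capitals as CTGATTGG, which 3.83% of all windows held, while H2-Aa rose and H2-Eb1 did not pass.
H2-Aa, chr17:34287824-34288073 (- strand): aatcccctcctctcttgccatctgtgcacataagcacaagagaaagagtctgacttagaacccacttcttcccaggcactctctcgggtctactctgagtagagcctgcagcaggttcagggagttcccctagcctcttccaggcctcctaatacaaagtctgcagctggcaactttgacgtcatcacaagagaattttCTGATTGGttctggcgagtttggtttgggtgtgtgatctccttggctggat
H2-Eb1, chr17:34305617-34305866 (+ strand): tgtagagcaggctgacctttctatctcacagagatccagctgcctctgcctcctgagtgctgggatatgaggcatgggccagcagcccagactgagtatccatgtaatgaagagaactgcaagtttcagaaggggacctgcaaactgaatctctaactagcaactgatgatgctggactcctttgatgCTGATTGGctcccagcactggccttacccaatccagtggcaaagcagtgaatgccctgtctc

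Among the largest rises were genes near or below the background level before adulthood. Cpxm2, a secreted protein of the carboxypeptidase family, read 118.2, 15.2 and 80.7 at 4 weeks, below background on each array, and 2270.3, 1668.8 and 2134.8 at 3 months, at least 16.1-fold higher. Its mean signal was between 28.5 and 71.4 in the 4 groups up to 4 weeks and between 1413.8 and 2024.6 in the 4 adult groups. Amy1, an amylase gene, read at most 16.3 at 4 weeks and 268.0, 114.6 and 159.1 at 3 months, at least 1.36-fold higher. The second 3-month array was itself in the background, and with signals under the background level raised to it the log2 difference was 0.49 and the call was lost (adjusted p 0.336). Cyp2b10, a cytochrome P450 known as a target of the receptor CAR in liver, read 111.5, 154.9 and 52.1 at 4 weeks and 1013.0, 836.3 and 1849.0 at 3 months, a log2 fold change of 3.59 ± 0.48 (adjusted p 4.22e-05). Liver markers as a list gave 0 calls among 15 (limma), with 1 at an unadjusted p under 0.05, and the albumin gene Alb was lower at 3 months than at 4 weeks on average, at -2.56 ± 0.87, without passing.

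**Figure D4:**
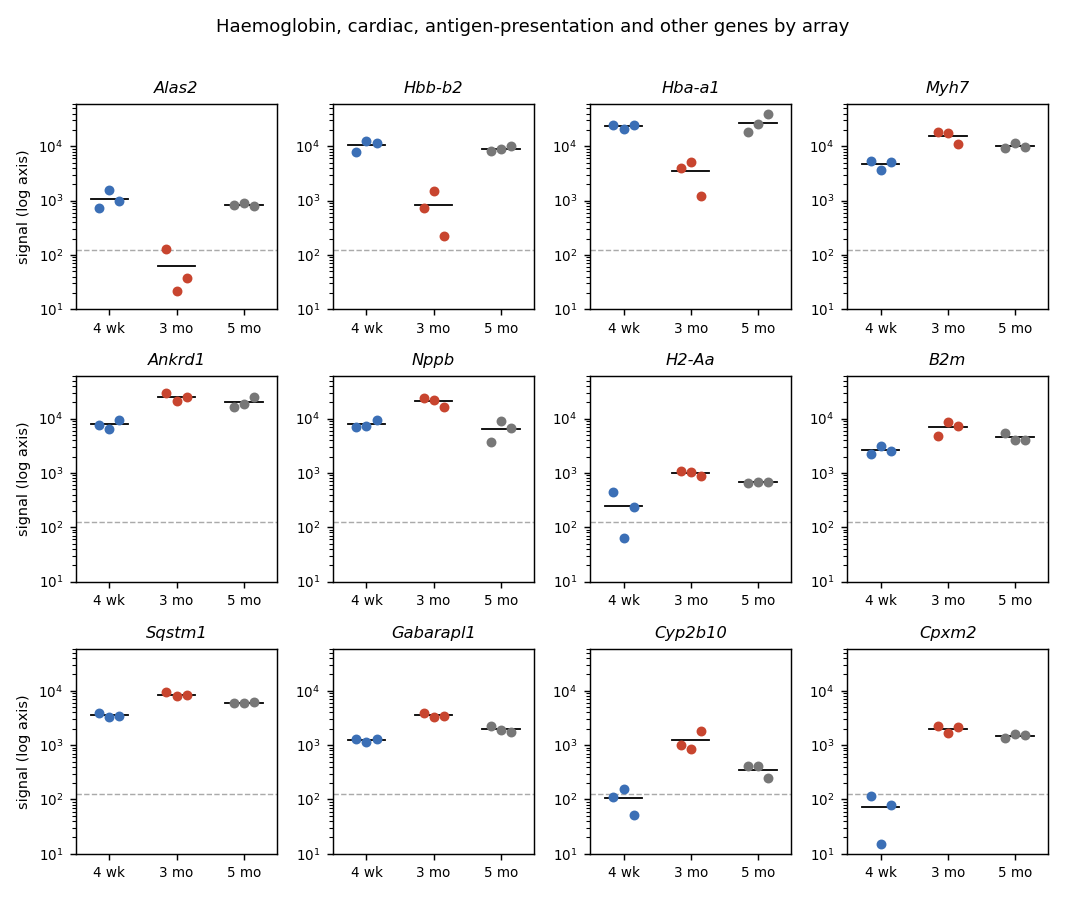
Signal of 12 genes of haemoglobin, load, antigen presentation, autophagy and other functions on each array at 4 weeks, 3 months (female) and 5 months (male), on a common log axis, with group means as lines and the background level of 124.6 dashed. The haemoglobin genes are low and Nppb is high at 3 months only, while Cpxm2 and Ankrd1 are high at both adult ages.

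Metabolic genes gave few calls. Of 30 genes of fatty acid oxidation, 1 rose and 3 fell, with a median of -0.21. Acadl, the long-chain acyl-CoA dehydrogenase, rose by 1.08 ± 0.24 on the log2 scale, and Eci1, Etfb and Acaa2, which serve other steps of the pathway, had log2 fold changes of -0.67 ± 0.16, -0.61 ± 0.15 and -0.61 ± 0.16. The 3 falls kept their calls in 2, 2 and 1 of the 6 fits that left out 1 array, and Acadl lost its call without the first 4-week array (adjusted p 0.0903) or the second 3-month array (adjusted p 0.0561). Of 61 genes of oxidative phosphorylation 3 fell, with a median of -0.14, and leaving out 1 array at a time gave 1 to 3. Ndufb8, at -0.79, lost its call without the first 4-week array (adjusted p 0.0502, limma). Among the 6 fits that left out 1 array, Cox6a1, at -0.57, kept its call only without the third 3-month array. The ATP synthase subunit gene Atp5o went from 22861.8, 21279.4 and 20611.4 to 11906.2, 8525.3 and 11500.2, a log2 fold change of -1.03 ± 0.16. Of 20 genes of the tricarboxylic acid cycle 0 passed (limma) and 5 had an unadjusted p under 0.05. Of 20 genes of glycolysis and glycogen use 1 fell, the pyruvate kinase gene Pkm at -0.63 ± 0.14, with an adjusted p of 0.0619 without the first 4-week array. Scd1, which introduces the double bond into stearic acid, read 430.5, 464.6 and 329.3 at 4 weeks and 1276.9, 3518.8 and 2106.4 at 3 months, a log2 fold change of 2.39 ± 0.29. Other probe sets of Scd1 gave 3.02 and -0.16, so they disagreed. Of the 13 adipocyte markers Scd1 was the 1 called, and Fabp4 had -0.43 ± 0.25 and Adipoq 0.27 ± 0.67.

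Growth signalling changed at single genes, with 1 rise and 2 falls among 19 genes of insulin and insulin-like growth factor signalling. Igf2, an imprinted fetal growth factor, read 2301.3, 2472.8 and 2993.0 at 4 weeks and 1291.2, 1343.6 and 1820.6 at 3 months, a log2 fold change of -0.81 ± 0.15 (adjusted p 0.0026). Its group means had been between 13500.1 and 14944.3 up to 1 week. Peg3, an imprinted zinc finger gene, read 457.4, 440.5 and 378.8 at 4 weeks and 196.7, 218.0 and 141.3 at 3 months, a log2 fold change of -1.22 ± 0.21. Of 18 imprinted growth genes 3 fell, with a median of -0.27, the last being Gnas at -0.72 ± 0.16, and leaving out 1 array at a time gave 2 to 5. Akt1, the kinase downstream of insulin and insulin-like growth factors, went from 1529.9, 1590.2 and 1579.2 to 793.9, 774.4 and 630.3, a log2 fold change of -1.10 ± 0.14 (adjusted p 1.32e-05). Outside these lists, Bckdha, a subunit of the enzyme that breaks down branched-chain amino acids, rose by 0.96 ± 0.18.

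Many cell division genes were in the background at both ages. Of 36 measured, 14 were below it on all 6 arrays and 2 fell, Mki67 and Kif22, which kept their calls in 0 and 1 of the 6 fits that left out 1 array. Mki67, a marker of dividing cells, read 95.9, 81.7 and 52.8 at 4 weeks and 6.0, 12.9 and 10.1 at 3 months, all in the background, and no fold is given. Of 34 DNA replication genes 1 fell. Dnmt1, the methyltransferase that copies DNA methylation at replication, read 285.2, 626.6 and 521.6 at 4 weeks and 48.4, 73.6 and 104.7 at 3 months, at least 3.64-fold lower. Mean Dnmt1 signal was 75.6 in 3-month females and 74.8 in 1-year females, but 340.0 in 5-month males and 320.9 in the 1-year group whose titles carry an m. The water channel gene Aqp4 went from 418.0, 474.4 and 375.3 to 51.3, 86.4 and 106.7, at least 3.38-fold lower.

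Oxidant defence and autophagy genes rose in part. Of 33 genes of oxidant defence and xenobiotic metabolism 4 rose and the other 29 did not pass, with a median of 0.28. Gstm2, a glutathione transferase, read 801.6, 951.2 and 1166.4 at 4 weeks and 2460.3, 2560.0 and 2171.1 at 3 months, a log2 fold change of 1.31 ± 0.25 (adjusted p 0.00316). Gpx3, Gstm1 and Txnrd1 rose by 0.80 ± 0.17, 0.67 ± 0.17 and 0.66 ± 0.16 and kept their calls in 5, 0 and 1 of the 6 fits that left out 1 array. A list of 24 autophagy genes, drawn up after values were seen, held 3 that rose. Sqstm1, the receptor that carries ubiquitinated cargo into autophagosomes, read 3945.2, 3327.7 and 3473.6 at 4 weeks and 9373.6, 7935.8 and 8297.5 at 3 months, a log2 fold change of 1.25 ± 0.13 (adjusted p 1.07e-06). Gabarapl1, a ubiquitin-like protein of the autophagosome membrane, read 1313.8, 1129.4 and 1303.3 at 4 weeks and 3876.7, 3326.5 and 3421.0 at 3 months, a log2 fold change of 1.50 ± 0.17 (adjusted p 2.37e-06). Retreg1, a receptor for autophagy of the endoplasmic reticulum, rose by 1.24 ± 0.18. The related Gabarap, at -0.02 ± 0.13, and Map1lc3a, at -0.16 ± 0.16, did not pass. A list of 14 genes of the Nrf2 pathway, also drawn up after values were seen, held 4 that rose, all of them named in this paragraph, and Nqo1 had 1.26 ± 0.64 without passing.

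**Figure D5:**
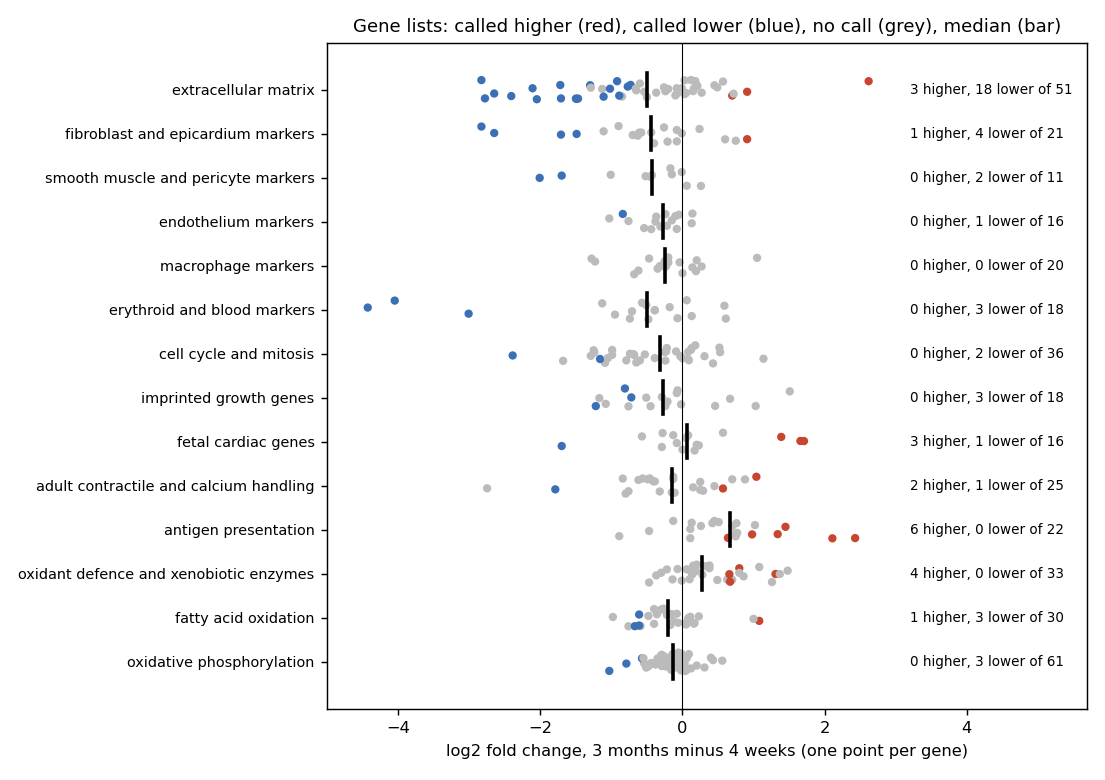
Log2 fold change, 3 months minus 4 weeks, of each measured gene in 14 lists, with called genes in colour and the list median as a bar. Among called genes, the erythroid and blood markers lie furthest to the left, with Alas2 at -4.43. The medians of these markers and of the matrix genes are both -0.50. Antigen presentation lies to the right with a median of 0.67.

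The remaining lists held few calls. Of 15 clock genes, 18 genes of the glucocorticoid response, 17 of senescence and 17 hormone and adrenergic receptors, 0 passed (limma), with 4, 6, 5 and 0 at an unadjusted p under 0.05. Of 18 neuron and Schwann cell markers and 8 lung epithelium markers 0 passed (limma), with 0 in both at an unadjusted p under 0.05. Among 13 atrial markers 1 passed as higher, Fgf12, with an adjusted p of 0.0487. Its mean was below the background level at both ages, and it lost its call whichever array was left out (adjusted p between 0.0665 and 0.171) and with signals under the background level raised to it (adjusted p 0.874). Among 8 thymus markers 1 fell, Cd4. Of 22 ion channel and conduction genes 1 fell, the potassium channel gene Kcnk3 at -1.36 ± 0.34, which kept its call only in the fit without the third 3-month array (adjusted p between 0.0651 and 0.149 in the other 5). The heat shock and immediate early list of 32 held 1 rise, Ier3 at 1.12 ± 0.18, and 1 fall, Fosl2 at -1.60 ± 0.43. The list of 37 genes of transforming growth factor beta and bone morphogenetic protein signalling held 1 rise, Tgfbr2, below background at both ages, and 1 fall, Fstl1 at -1.02 ± 0.23. Fosl2 and Fstl1 kept their calls in 2 and 4 of the 6 fits that left out 1 array. Of 26 ribosomal protein genes 1 fell. Of 28 proteasome and ubiquitin genes 1 rose. Of 18 genes of protein folding in the endoplasmic reticulum 1 rose, the stress-induced Herpud1, which read 1491.0, 1036.0 and 1312.9 at 4 weeks and 2190.5, 2830.5 and 3071.5 at 3 months, a log2 fold change of 1.08 ± 0.18. In the complement list the chaperone gene Clu rose by 1.05 ± 0.15 and Cd59a, an inhibitor of the membrane attack complex, fell by 0.71 ± 0.19 and kept its call only in the fit without the first 3-month array.

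The 5-month males, set against the same 4-week arrays, gave 84 called probe sets (0.844%), with 34 higher and 50 lower. The 2 adult comparisons share the 4-week arrays, so their values stand side by side and are no independent support for each other. For Col1a1 the log2 fold change from 4 weeks was -2.83 ± 0.15 in the 3-month females and -2.19 in the 5-month males, and for Eln it was -2.78 and -2.77. In the matrix list 14 genes fell at 5 months, with a median of -0.53. Cpxm2, in the background at 4 weeks, had 4.01 and 3.58 with signals under the background level raised to it. For Ankrd1 the values were 1.66 and 1.34, and for Bckdha 0.96 and 1.04. For Acta2 they were -1.70 and -2.01. For Hba-a1, in contrast, they were -3.01 and 0.14, for Alas2 -3.03 and -0.30 with low signals raised in the same way, for Nppb 1.39 and -0.38, and for Scd1 2.39 and 0.09.

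The 3-month females differed from the 5-month males directly at 84 probe sets (0.844%), a comparison in which age and sex also cannot be told apart. Of the 220 genes called between 4 weeks and 3 months, 36 passed here too. They included the haemoglobin genes, at -3.15 ± 0.34 for Hba-a1, -3.83 ± 0.40 for Hbb-b2 and, with low signals raised to the background level, -2.73 for Alas2. Ccn2 was higher in the 3-month females by 1.84 ± 0.26, Nppb by 1.77 ± 0.27 and Scd1 by 2.30 ± 0.29. Col1a1 was lower by 0.64 ± 0.15 (adjusted p 0.0403), while Eln, at -0.01 ± 0.18, and Sparc, at -0.75 ± 0.21 (adjusted p 0.1), did not pass. Over the 8 groups mean Col1a1 signal rose from 2074.5 at E12.5 to 12961.6 in neonates and 15471.4 at 1 week, was 4896.5 at 4 weeks, and lay between 689.3 and 1073.9 in the adult groups. Eln had the same course, with 20065.3 at 1 week, 5578.0 at 4 weeks and 746.3 to 865.4 in adults. Both genes were thus still above the adult level at 4 weeks.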

How the data were processed

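RNA from heart ventricle was measured on 24 arrays, of which 3 (4 weeks) and 3 (3-month females) are compared. The deposited values are linear signals (intensity) that the authors had scaled: the 2%-trimmed mean of the values above 0 was between 500.44 and 500.6 on every array. The software behind them is not given in the sources used here. Symbols came from the platform annotation and were updated by Entrez ID against the GRCm38.p6 annotation, with a match for 10279 of 10298 single-gene probe sets.

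Signals under 14.2, the 25th percentile of the table, were raised to that value before taking log2. Probe sets above it on at least 3 of 24 arrays were tested. limma 3.58.1 in R 4.3.3 was fitted to all 24 arrays with 1 mean per group (eBayes, variance trend on intensity), which left 16 residual and 7.58 prior degrees of freedom. P-values are two-sided and adjusted by Benjamini-Hochberg over all probe sets, at 0.05. The fit was tested on simulated data. A fold change is on the log2 scale with its SE from the fit. For genes with signals below the background level its size depends on the floor. It can then be larger than with the floor at the background level, as for Amy1 (3.51 against 0.49). Where 1 group lay below 124.6 on all arrays, "at least" gives the other group's mean against that level. The precision is limited by 3 arrays per group, and 38.9% of the values lay below the background level.

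The naming rule took the 15 largest rises and falls among called genes above background whose arrays did not overlap. It also took up to 5 called members and up to 3 bright markers per list, and the sex-linked genes. Not all of these are described, with Fgf6, Tspan4 and Gng3 among those left out. Other list members were chosen after their values were seen. The comparison and the 41 gene lists were chosen with earlier results of these data known. The alternatives tried were other floors, filters and normalizations, fewer arrays, other variance models, control ratios as covariates, and leaving out each array. Promoter windows came from RefSeq.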

Additional observations from a re-analysis of the deposited data

Results flagged for a closer look

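Of the 36 genes called between 4 weeks and 3 months that also differed between the adult groups, 22 belong to those named here. For these 22 the change from the 4-week arrays differed between the 3-month females and the 5-month males by the direct limma test of those groups at an adjusted p of 0.05. Both changes use the same 4-week arrays, and the adult groups differ in age and in sex, which cannot be told apart. The third 5-month array, with the highest added-control signals, was not left out. Differences are log2 values, 3-month females minus 5-month males.

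Lower in the 3-month females were the haemoglobin and heme genes Alas2 (-4.14), Hbb-b2 (-3.83) and Hba-a1 (-3.15), the gluconeogenic enzyme gene Fbp2 (-3.03), Tent5c (-2.83), Dnmt1 (-2.23) and Gnai1 (-1.71). Alas2 on 2 of the 3-month arrays, and Fbp2, Tent5c, Dnmt1 and Gnai1 on all 3, read below the background level, so these sizes are set by values in the background. With signals under that level raised to it, the differences were -2.73 for Alas2, -2.13 for Fbp2 and -1.44 for Dnmt1, which passed, and -1.19 for Tent5c (adjusted p 0.104) and -0.12 for Gnai1 (adjusted p 0.895), which did not. In the comparison with 4 weeks, Tent5c (-0.90, adjusted p 0.18) and Gnai1 (-0.26, adjusted p 0.626) lost their calls in the same way. Smaller differences in this direction were those of the fatty acid oxidation genes Acaa2 (-0.76) and Eci1 (-0.75), the kinase gene Akt1 (-0.76), the endothelial cadherin gene Cdh5 (-0.70) and Col1a1 (-0.64).

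Higher in the 3-month females were Xist (4.90), the neuronal calmodulin-binding gene Nrgn (3.08), the platelet glycoprotein gene Gp9 (2.43), Scd1 (2.30), Ccn2 (1.84) and Nppb (1.77). Lum (0.96), Gabarapl1 (0.85) and Gpx3 (0.72) followed. Xist and Nrgn were in the background in all 5-month males, as at 4 weeks. With signals under the background level raised to it, the differences between the adult groups were 2.72 for Xist (adjusted p 0.0993) and 1.17 for Nrgn (adjusted p 0.000872), and those from 4 weeks were 2.72 (adjusted p 0.061) and 1.17 (adjusted p 0.000256). In the comparison with 4 weeks, Fbp2 and Gp9 kept their calls in 0 and 1 of the 6 fits that each left out 1 array. The receptor gene Tgfbr2 passed the test as well, with a difference of 2.21 between signals that were below the background level on every array of the 3 groups, so it has no place in this order and no fold is drawn from it.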

How the results depend on the processing

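The count of 277 called probe sets moved by more than 1.5 times under 8 alternatives. It was 156 with only the 6 arrays, 180 without an intensity trend, 464 with array weights and 31 with the BioB to BioC ratio as a covariate. Leaving out each array in turn gave between 162 and 322, with moves of that size to 165, 162 and 172 without 4-week arrays 1, 2 and 3 and to 184 without the second 3-month array. Under the other alternatives it was between 230 (median centring) and 348 (only probe sets with a mean above the background level). Of the 78 called genes taken by the naming rule, 0 changed direction under any alternative. With the BioB to BioC ratio 16 kept their call: Alas2, Hbb-b2, Hba-a1, Col1a1, Col1a2, Col3a1, Eln, Sparc, Casq1, Ccn2, Cyp2b10, Scd1, Myh7, Ankrd1, Sqstm1 and Gabarapl1. Of the other 18 arrays, 2, both of the 1-year m group, had a ratio in the 3-month range. A call kept or lost in that fit therefore does not show what the ratio accounts for. With the floor at the background level 11 lost their call (Xist, Amy1, Nr1h4, Tent5c, Tmem45a, Gnai1, Mki67, Kif22, Fosl2, Fgf12 and Cnn1) and Tgfbr2 could not be tested. With only the 6 arrays 27 lost it. No paired analysis was possible because no number in the labels ties a 4-week sample to a 3-month one. Signals below the background level, which are common on these arrays, limit what can be said of dim genes.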
